A study of Mus musculus with 8 samples.

Results

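Interferon-stimulated genes and RNA sensors were examined in primary cultured mouse keratinocytes, the cells that form the epidermis. The group consists of 36 genes taken by symbol: the type I interferon receptor, the transcription factors it uses, cytosolic sensors of viral RNA, and antiviral effectors. All 36 had a row in the deposited table of 19457 genes. Of the 8 libraries, 4 came from mice labelled wild type (WT) and 4 from mice labelled HdR, which carry HOIL1 ΔRING1, a form of HOIL-1 that lacks its first RING domain. All 8 cultures were harvested before confluence, and the labels name no stimulus, sex, age or strain. They also leave out whether each library had its own animal, so the p-values measure the spread between these libraries.

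Type I interferons bind a receptor made of the chains IFNAR1 and IFNAR2, which activates the kinases TYK2 and JAK1. The kinases phosphorylate STAT proteins, which join IRF9 and switch on genes whose promoters hold an interferon-stimulated response element. RIG-I (Ddx58) and MDA5 (Ifih1) detect viral RNA in the cytosol and, through MAVS, TBK1 and IRF3, start interferon production. HOIL-1 (gene Rbck1) is a subunit of LUBAC, the complex that builds linear ubiquitin chains, and the comparison shows which of these transcripts differ with its genotype in unstimulated cells.

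Levels are given as aligned bases per megabase (per Mb) of the scaled library total, since the authors deposited summed coverage per gene and not read counts. A gene was above the floor, and was tested, where its mean over the 8 libraries was at least 1 per Mb. That level is about 15.8 to 18 read pairs in a WT library and 7.64 to 14.3 in an HdR library. WT libraries held 4.78 to 5.43 Gb of aligned bases and HdR libraries 2.31 to 4.31 Gb, so every HdR library was shallower and depth cannot be told apart from genotype. Rbck1 was lower in every HdR library, with a mean of 43.7 ± 1.87 per Mb against 87.5 ± 3.4 in WT (SD, n = 4). Coverage is summed over the gene, so the deleted part was not seen separately. WT 4 was the WT library closest to HdR on the first principal component, where it scored 11.3, WT 1 to 3 scored 17.8 to 20.3 and HdR -19.3 to -15.5. The epidermal keratin genes Krt5 and Krt14 were at 17300 and 17500 per Mb in WT.

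Most of the group was below the floor. Of the 36 genes, 15 (41.7%) were above the floor, against 61% of all genes in the table. Of the 21 below it, 11 had a mean of 0.2 per Mb or more, 9 were lower than that, and Ifi44 was listed at 0 in all 8 libraries. Among the 15 tested genes 4 rose in HdR (Ifit2, Irf1, Ddx58 and Parp14), 4 fell (Oas3, Ifnar2, Irf9 and Irf3) and 7 were not called (limma, Benjamini-Hochberg adjusted p under 0.05 over 11870 genes). The share called was 53.3%, and 45% of all tested genes were called. By direction, 26.7% of the tested members were higher and 26.7% lower, against 21.2% and 23.8% of all genes tested. The members' shares were therefore close to those of the table as a whole. Their median log2 fold change was 0.03, against -0.01 over all genes tested. No called member differed more than 2-fold, as did 3.44% of all called genes. The limma treat test against a fold of 1.2 called 0 of the 15, with 0 at an unadjusted p under 0.05, and 7.47% of all genes. A pseudocount of 1 was added before the log, which shrinks the fold changes of genes near or below the floor. For tested genes near the floor, treat therefore asks for more than a 1.2-fold difference in level.

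Promoter sequence is shown for called members with a match and for some members below the floor. The plan covered called members with the interferon-stimulated response element, and the other stretches were added to it. RefSeq promoter sequences (GRCm38.p6) were matched by symbol for 27 of the 36 members. Of their 31 promoter windows, 28 had bases at the start that match a GENCODE transcript start. Distances are counted from the start given with the promoter sequence. In the 250 bases before the start, both strands were searched for TTTC, any 2 bases, TTTC (the core of the interferon-stimulated response element), for TTC, any 3 bases, GAA (the gamma-activated site bound by STAT dimers) and for GGGA, any 2 bases, TTCC (an NF-κB site). The following stretches are each 80 bases long, written 5′ to 3′ along the gene's strand and ending before the start, with the matches in capitals. The first 3 hold the gamma-activated site pattern and belong to members that rose or fell.
Irf1, chr11:53769888-53769967, plus strand: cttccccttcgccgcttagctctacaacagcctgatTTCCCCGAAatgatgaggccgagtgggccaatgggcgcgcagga
Ifnar2, chr16:91372533-91372612, plus strand: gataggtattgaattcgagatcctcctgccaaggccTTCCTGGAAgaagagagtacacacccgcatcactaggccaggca
Ifit2, chr19:34550444-34550523, plus strand: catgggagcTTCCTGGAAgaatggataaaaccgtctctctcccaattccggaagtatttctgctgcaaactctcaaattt

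The next 4 hold the response element. Oas3 was the called member with it, and Oas1a, Isg15 and Ifit1, chosen after their values were seen, represent genes below the floor.
Oas3, chr5:120777690-120777769, minus strand: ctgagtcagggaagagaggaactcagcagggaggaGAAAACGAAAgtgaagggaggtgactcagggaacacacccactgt
Oas1a, chr5:120907526-120907605, minus strand: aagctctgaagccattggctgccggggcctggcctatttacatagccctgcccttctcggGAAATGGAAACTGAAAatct
Isg15, chr4:156200846-156200925, minus strand: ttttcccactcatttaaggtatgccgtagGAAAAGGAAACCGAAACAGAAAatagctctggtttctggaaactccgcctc
Ifit1, chr19:34640759-34640838, plus strand: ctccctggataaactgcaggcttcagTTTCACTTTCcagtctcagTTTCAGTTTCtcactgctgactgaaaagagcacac

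The response element pattern was found in 11 of the 27 members with a promoter sequence, and in 2.98% of 32851 promoter windows of the same length. The members were chosen as interferon-stimulated genes, so this share is a description of the list. By expression, the 11 comprised 8 of 14 members below the floor, 2 of 6 that were tested and not called (Stat2 and Bst2), 1 of 4 that fell (Oas3) and 0 of 3 that rose. Isg15 had 3 overlapping matches 78 to 57 bases before its start and Ifit1 had 2. The gamma-activated site pattern was in 5 members (7.02% of all windows), among them Irf1, where it lay 90 to 82 bases before the start. The NF-κB pattern was in Ifit2, where it overlaps the printed match, and in Cxcl10 (1.21% of all windows). A match is a run of letters and not a shown binding site.

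The receptor chains differed from each other in their call. Ifnar2, the chain that carries the STAT docking part of the receptor (chr16:91372783-91405589, plus strand), was at 20.1, 21.4, 20.3 and 20.9 per Mb in WT 1 to 4 and at 17, 15.9, 16.8 and 14.9 in HdR 1 to 4. Every HdR value lay below every WT value, a difference of -21.8% in the mean, and limma gave a log2 fold change of -0.34 ± 0.065 (SE, adjusted p = 0.00042). Ifnar1, on the same chromosome, was at 34.2 ± 1.52 in WT and 34.1 ± 2.36 in HdR (SD, n = 4). Its groups overlapped, and the 95% interval of its log2 fold change ran from -0.13 to 0.12. Per kilobase of exon both chains were at like levels in WT, 6.22 ± 0.171 for Ifnar2 and 5.76 ± 0.256 for Ifnar1 (per Mb per kb). The difference between the chains was not tested. Of the Ifnar2 exonic length, 9.46% is shared with the annotated gene Gm21970, which has no row in the table.

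Of the transcription factors, Irf1 rose, Irf9 and Irf3 fell, and Stat2 was not called. Irf1 is a factor induced by interferon gamma and by NF-κB (chr11:53770014-53778374). It was at 7.12, 8.08, 8.2 and 8.48 per Mb in WT 1 to 4 and at 9.02, 12.3, 11.8 and 11.3 in HdR 1 to 4. The groups did not overlap, although HdR 1 lay near the WT range, and the log2 fold change was 0.43 ± 0.096 (SE, limma adjusted p = 0.00162). Irf9, the DNA-binding partner of STAT proteins in the interferon response, went from 7.48, 7.15, 6.52 and 6.22 in WT 1 to 4 to 5.98, 5.76, 5.23 and 4.52 in HdR 1 to 4. It was lower in all 4 HdR libraries, by 0.30 ± 0.10 on the log2 scale (adjusted p = 0.021). This call was lost without WT 1 (limma adjusted p = 0.0733), WT 2 (0.054) or HdR 4 (0.0663) and after thinning to the smallest library (0.313), where 37.7% of all genes were called. Irf9 lies next to Rnf31, the gene of the LUBAC subunit HOIP, and shares 2.28% of its exonic length with it on the same strand.

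Irf3, the factor that sensors activate by phosphorylation, had the highest level of the group (chr7:44997648-45002848). It was at 48.7, 50.6, 51.9 and 53.7 per Mb in WT 1 to 4 and at 44.9, 47.1, 41 and 46.1 in HdR 1 to 4. All HdR values lay below the WT values, but the change was small, at -0.19 ± 0.053 on the log2 scale (SE, limma adjusted p = 0.00685). After thinning it was -0.14 (adjusted p = 0.0646). Stat2 was at 12.7 ± 0.571 in WT and 13.4 ± 0.724 in HdR (SD, n = 4), and its 95% interval ran from -0.08 to 0.22. Irf7, the factor that amplifies interferon production and is itself induced by interferon, was below the floor, at 0.591 ± 0.045 in WT and 0.684 ± 0.133 in HdR.

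**Figure D1:**
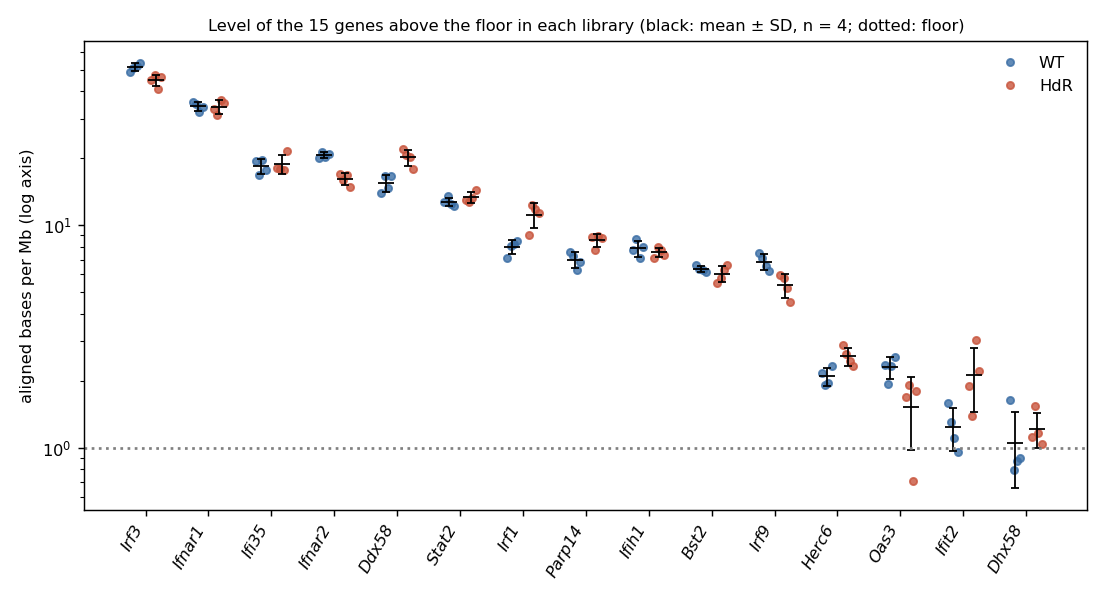
Level of the 15 tested genes in each library, in aligned bases per Mb on a log axis, with 4 WT (blue) and 4 HdR (red) points per gene, the mean ± SD in black and the floor dotted. Irf3 is highest at 51.2 in WT, Ifnar2 and Irf9 have all HdR points below the WT points, and Irf1 and Ddx58 have all HdR points above them.

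Of 4 nucleic acid sensors, 1 rose, 2 were not called and 1 was below the floor. Ddx58, which encodes RIG-I (chr4:40203773-40239828, minus strand), was at 14, 16.7, 14.7 and 16.6 per Mb in WT 1 to 4. In HdR 1 to 4 it was at 21.9, 20.6, 20.3 and 17.9. All HdR values lay above the WT values, with a mean difference of 30%, and limma gave a log2 fold change of 0.36 ± 0.078 (SE, adjusted p = 0.0012). Ifih1, which encodes MDA5, overlapped between the genotypes, at 7.86 ± 0.63 in WT and 7.54 ± 0.38 in HdR (SD, n = 4; 95% interval of the log2 fold change -0.23 to 0.13). Dhx58, which encodes LGP2, a relative of both without signalling domains, was at 1.05 ± 0.39 and 1.22 ± 0.223 (-0.18 to 0.43).

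Zbp1, a sensor of left-handed nucleic acid that can start necroptosis, was below the floor. It was at 0.305, 0.29, 0.315 and 0.219 per Mb in WT 1 to 4 and at 0.709, 0.382, 0.427 and 0.735 in HdR 1 to 4. The groups did not overlap, but each library held 3.72 to 10.2 read pairs, and HdR 1 and HdR 4 were the high ones. In a fit with no floor its log2 fold change was 0.28 ± 0.084 (SE, limma adjusted p = 0.0317). The pseudocount of 1 shrinks this value, since the means differed by 99.3%. In that fit 28.3% of 18370 genes were called.

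Of 5 genes for oligoadenylate synthetases, enzymes of the response to double-stranded RNA, and their relatives, Oas3 was tested and fell. Oas3, the longest of them (chr5:120753098-120777661, minus strand), was at 2.34, 1.94, 2.33 and 2.56 per Mb in WT 1 to 4 and at 1.68, 1.92, 0.709 and 1.8 in HdR 1 to 4. HdR 3 was far below the rest and HdR 2 reached almost to the lowest WT library. The limma call, at a log2 fold change of -0.41 ± 0.16 (SE, adjusted p = 0.0398), was the least firm. It was lost, apart from the treat test, in 7 alternatives: with upper-quartile scaling (0.0533), with no floor (0.0917), and without WT 1 (0.0829), WT 3 (0.0622), WT 4 (0.0913), HdR 1 (0.0513) or HdR 3 (0.15). Without HdR 3 the log2 fold change was -0.23. Oas3 was left untested by the stricter filter.

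Oas1a lay just below the floor with a mean of 0.973 over the 8 libraries, and was not tested. It was at 0.563, 0.282, 0.23 and 0.718 per Mb in WT 1 to 4 and at 1.8, 0.862, 0.934 and 2.39 in HdR 1 to 4. Every HdR value was above every WT value, and in the fit with no floor the log2 fold change was 0.75 ± 0.20 (SE, limma adjusted p = 0.0174). The pseudocount of 1 shrinks this fold change, since the means of Oas1a differed by 234%. With any 1 WT library left out its mean reached the floor through its HdR values, and the call of higher that it then got rests on that filter. Of its stretches of 151 bases, the length of a read, 32.3% also occur in the transcripts of Oas1g, so reads of these 2 genes may have been exchanged. Oas1g was itself at 0.199 ± 0.0476 in WT and 0.784 ± 0.172 in HdR (SD, n = 4). Oasl1 and Oasl2, which encode related proteins, were at 0.108 and 0.456 in WT and 0.0387 and 0.624 in HdR, and Oas2 was listed at 0 in all 4 WT libraries and in HdR 2.

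Among the IFIT genes, whose proteins bind viral RNA ends and block translation, Ifit2 was the one above the floor (chr19:34550694-34576419). It was at 1.58, 1.3, 1.1 and 0.954 per Mb in WT 1 to 4 and at 1.89, 1.39, 3.03 and 2.2 in HdR 1 to 4. The groups overlapped at HdR 2, and HdR 3 was the highest. Ifit2 rose by 0.47 ± 0.15 on the log2 scale (SE, limma adjusted p = 0.0195), which the pseudocount of 1 shrinks, since the means differed by 72.5%. The call was lost without HdR 3 (0.0829) or WT 4 (0.0565) and after thinning (0.0884), and the stricter filter left Ifit2 untested. Ifit1 was seen in 4 of 8 libraries and Ifit3 in 8 of 8, with 4 and 10.7 read pairs in all. Ifit3 and its near copy Ifit3b share 18.4% and 15.8% of their 151-base stretches, and an 80-base stretch of their promoters with 2 response elements was identical.

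The ISG15 system attaches the ubiquitin-like protein ISG15 to other proteins. Isg15 itself was at 0.73, 0.998, 0.382 and 0.704 per Mb in WT 1 to 4 and at 0.409, 0.841, 0.275 and 0.26 in HdR 1 to 4. The groups overlapped, and the log2 fold change without a floor was -0.24 ± 0.14 (SE, limma adjusted p = 0.256). Usp18, its protease, was at 0.282 ± 0.136 in WT and 0.417 ± 0.0607 in HdR (SD, n = 4). Herc6, the mouse ligase for ISG15, was at 2.09 ± 0.193 and 2.57 ± 0.239 (95% interval of the log2 fold change -0.03 to 0.44). Its HdR values all lay just above the WT values, yet it was not called (adjusted p = 0.138). The floor takes no account of gene length: per kilobase of exon, Isg15 (0.931 ± 0.333) was near Ifih1 (0.963 ± 0.0772) in WT.

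Parp14, an ADP-ribosyltransferase of the macro-domain family (chr16:35832874-35871544, minus strand), was at 7.6, 7.3, 6.26 and 6.83 per Mb in WT 1 to 4. In HdR 1 to 4 it was at 8.85, 7.69, 8.92 and 8.79. The groups did not overlap, with HdR 2 close to WT 1, and the log2 fold change was 0.26 ± 0.089 (SE, limma adjusted p = 0.0247). The call was lost without WT 3 (0.0802), WT 4 (0.0505), HdR 1 (0.0625) or HdR 3 (0.0638) and after thinning (0.309). Trim30a, a ligase that restrains Toll-like receptor signalling, was seen in 2 of 8 libraries with 2.42 read pairs in all.

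**Figure D2:**
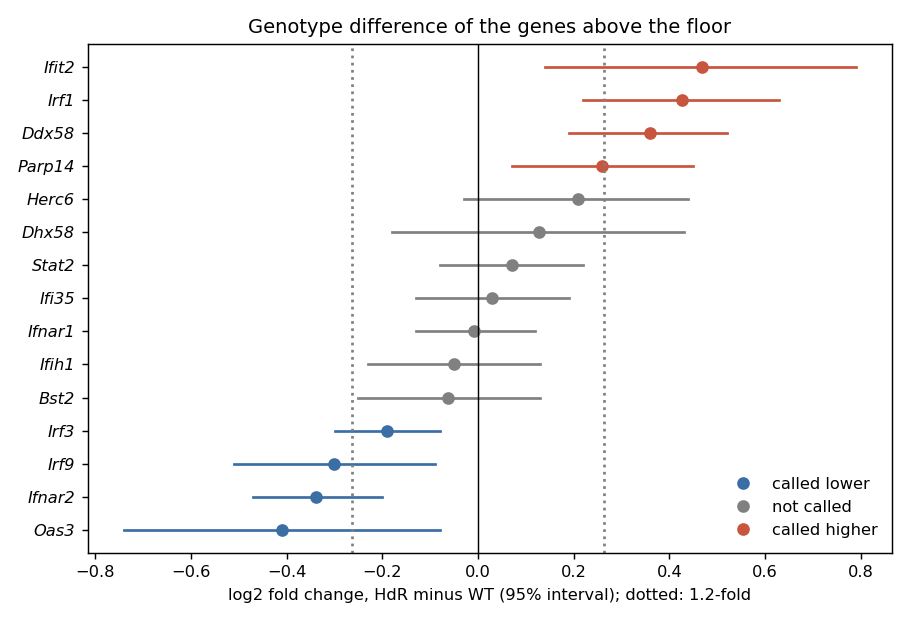
Log2 fold change of HdR minus WT for the 15 tested genes, with 95% intervals from the limma fit, and dotted lines at 1.2-fold. The 4 genes that rose run from Parp14 (0.26) to Ifit2 (0.47) and the 4 that fell from Irf3 (-0.19) to Oas3 (-0.41), and none of the 15 intervals lies wholly outside the dotted lines.

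Of 10 antiviral effector genes, Bst2, which encodes tetherin, and Ifi35 were the 2 above the floor, which takes no account of gene length. Bst2 was at 6.34 ± 0.19 in WT and 6.04 ± 0.493 in HdR (SD, n = 4; interval -0.25 to 0.13), and Ifi35 at 18.3 ± 1.36 and 18.8 ± 1.82 (-0.13 to 0.19). Both overlapped between genotypes. Per kilobase of exon, Ifi35 (10.6 per Mb per kb in WT) and Bst2 (7.02) were above both receptor chains.

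Mx2, an interferon-induced dynamin-like GTPase, had a mean of 0.84 over the 8 libraries and was not tested. It was at 1.51, 1.39, 1.38 and 0.748 per Mb in WT 1 to 4 and at 0.413, 0.707, 0.309 and 0.26 in HdR 1 to 4. All HdR values lay below the WT values, with WT 4 near HdR 2. With no floor its log2 fold change was -0.66 ± 0.14 (SE, limma adjusted p = 0.00531), which the pseudocount of 1 shrinks, since the means differed by -66.4%. Ifi27l2a was likewise without overlap, at 0.533 ± 0.0933 in WT and 0.335 ± 0.0185 in HdR (SD, n = 4; -0.20 ± 0.060, adjusted p = 0.0325). Mx1 (0.34 ± 0.094 and 0.214 ± 0.204) and Xaf1 (0.571 ± 0.214 and 0.641 ± 0.155) overlapped. Rsad2, which encodes viperin, and its neighbour Cmpk2, a nucleotide kinase that acts with it, gave 15.6 and 2.88 read pairs in all, and Rtp4 gave 3.63.

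Cxcl10, the chemokine that draws CXCR3-bearing T cells and is a target of both interferon and NF-κB, was below the floor. It was at 1.01, 0.432, 1.29 and 0.49 per Mb in WT 1 to 4 and at 0.64, 0.999, 1.02 and 1.43 in HdR 1 to 4. WT 1 and WT 3 were among the HdR values and WT 2 and WT 4 below them. With no floor its log2 fold change was 0.18 ± 0.17 (SE, limma adjusted p = 0.522).

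**Figure D3:**
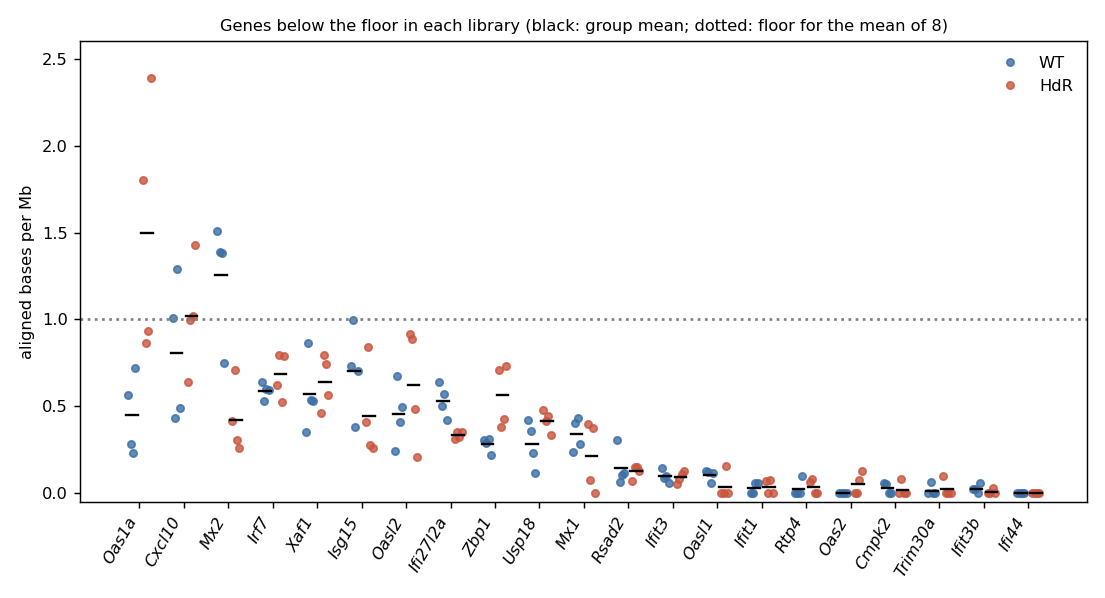
Level of the 21 untested genes in each library, in aligned bases per Mb, with 4 WT (blue) and 4 HdR (red) points per gene, the group mean as a black bar and the floor for the mean of 8 libraries dotted. Oas1a and Zbp1 have all HdR points above the WT points, Mx2 and Ifi27l2a all below, and the 9 genes from Rsad2 to Ifit3b stay near 0.

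In no library did the median of the members move far from the WT mean. The median deviation of the 15 tested genes from their WT means was -0.021, 0.009, 0.064 and 0.052 (log2) in HdR 1 to 4, and -0.058 to 0.036 in the WT libraries. In HdR 4 10 of the 15 lay above the WT mean, as in WT 1. WT and HdR values were fully apart in 8 of the 15, 4 in each direction, where 41.1% of all tested genes had no overlap.

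Genes that lead to and from this group were read from further lists. Of 8 interferon genes sought, 3 had a row, and none of these reached the floor: Ifne and Ifnl3 were listed at 0 and Ifnl2 gave 0.444 read pairs, in HdR. Ifnb1, Ifna2, Ifna4, Ifnk and Ifng had no row, so their levels are not known. Of 10 genes of the other interferon receptors and the JAK-STAT pathway, all tested, 4 fell and 1 rose, where 45% of all tested genes were called, 21.2% higher and 23.8% lower. In this list 2 rose without HdR 4 or with upper-quartile scaling, and 2 fell after thinning. The kinase genes Tyk2 and Jak2 fell, with log2 fold changes of -0.21 ± 0.050 and -0.20 ± 0.053 (SE, limma adjusted p = 0.00307 and 0.00498). Il10rb, a chain shared by the interferon lambda and IL-10 receptors, went from 25.7 ± 1.05 to 22 ± 1.22 per Mb (SD, n = 4). Socs3, a feedback inhibitor of JAK signalling, rose from 41 ± 2.67 to 51.8 ± 3.51.

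Of 15 tested genes of nucleic acid sensing, 5 rose, 3 fell and 7 were not called, a share called near the 45% of all tested genes. By direction, 21.2% of all tested genes were higher and 23.8% lower. Trim25, a ubiquitin ligase of the RIG-I pathway, rose from 38.5 ± 1.71 to 53.6 ± 1.91 per Mb (SD, n = 4), or by 0.47 ± 0.050 on the log2 scale (SE). Ikbke, which encodes a kinase of IRF3, rose from 56.8 ± 2.08 to 73 ± 2.81 and Traf3 from 54.5 ± 2.9 to 70.2 ± 4.56. Tmem173, which encodes the DNA-sensing adaptor STING, was at 0.722 ± 0.125 in WT and 2.02 ± 0.41 in HdR, and reached the floor through its HdR values. Traf6 fell from 43.9 ± 2.65 in WT to 36.9 ± 1.95 per Mb in HdR, and Tank and Ticam1 also fell. Mavs and Tbk1 were not called (0.11 ± 0.064 and 0.02 ± 0.050). The number that fell was 1 without WT 1, WT 2 or HdR 3, with scaling by upper quartile or library total alone and after thinning. It was 2 without WT 3, HdR 1, HdR 2 or HdR 4, and 4 with limma-voom. With the stricter filter 12 were tested and 3 rose.

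Of 25 further interferon-stimulated genes tested, 8 rose and 5 fell, again near the share of 45% over all tested genes, with a median log2 fold change of 0.079. Over all tested genes 21.2% were higher and 23.8% lower, with a median of -0.01. Pml, the organiser of nuclear bodies, rose from 29.4 ± 1.14 to 41.4 ± 3.05 per Mb, Ifitm3, which blocks virus entry, from 105 ± 5.16 to 144 ± 10.3, and Rnf213 from 37.6 ± 3.88 to 50.6 ± 3.11 (SD, n = 4). Trafd1, a feedback regulator, fell from 55.3 ± 1.41 to 40.4 ± 2.6. Without WT 1, 5 rose and 3 fell, and 3 fell without WT 2, HdR 1, HdR 2 or HdR 3, with no floor, and with scaling by upper quartile or by library total alone. Of 4 tested genes induced by interferon gamma, Gbp2 and Gbp7, which encode guanylate-binding proteins, rose (0.48 ± 0.13 and 0.63 ± 0.13), and Igtp and Irgm1 were not called. Of all genes tested, 21.2% were higher. Gbp7 was at 0.938 ± 0.21 in WT and 1.99 ± 0.264 per Mb in HdR (SD, n = 4) and, like Tmem173, reached the floor through its HdR values. With thinning 1 of the 4 was called, and with the stricter filter 0 of the 4 were tested. With treat in limma and a fold of 1.2, 7.47% of all genes tested were called. There were 2 higher calls among the 15 sensing genes, and 2 higher and 1 lower of the 25 further genes. The sensing calls include Tmem173, which reached the floor through its HdR values. Treat called 0 of the 10 receptor and JAK-STAT genes and 0 of the 4 interferon gamma genes, with 0 and 1 at an unadjusted p under 0.05.

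**Figure D4:**
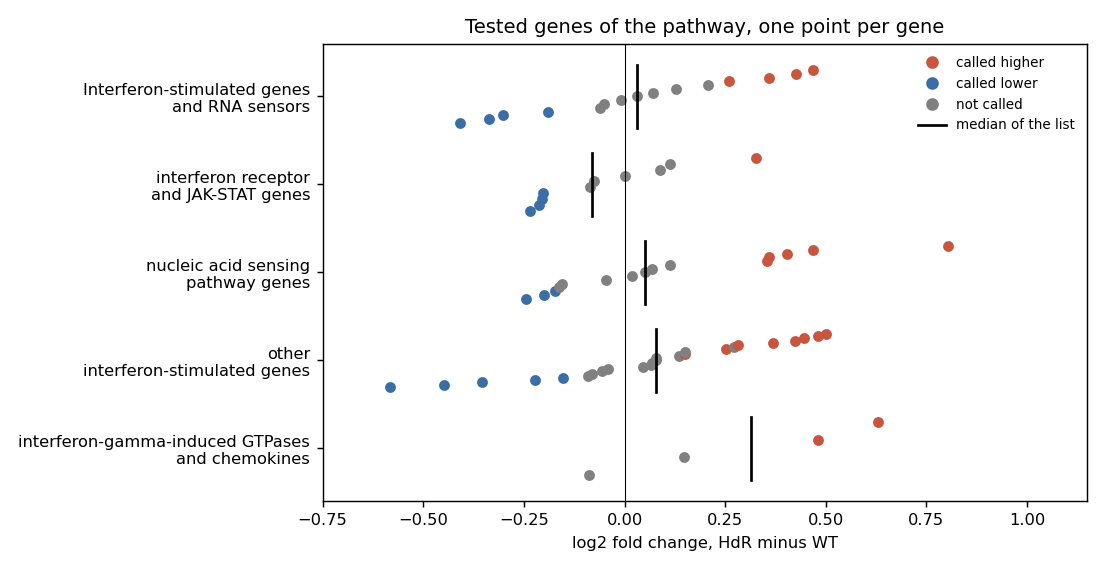
Log2 fold change of HdR minus WT for each tested gene of the 36-gene group (15 points) and of 4 further lists of the pathway (10, 15, 25 and 4 points), with called genes in red or blue and the median of each list as a black bar. Genes lie on both sides of 0 in each list, and the highest point is Tmem173 at 0.80.

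Markers of other cell types that could respond to interferon were low, apart from 2 macrophage and 6 melanocyte markers that reached the floor. The leukocyte genes Adgre1, Lyz2, Cd207 and Cd4 were listed at 0 in all libraries, and the summed level of 4 Langerhans cell markers was 1.04 to 1.24 per Mb in WT and 0.711 to 1.27 in HdR. Of 7 macrophage and dendritic cell markers 2 were tested and both fell, Cd68, a lysosomal gene, and Itgam, and their list's sum was 52.1 to 66.1 in WT and 42.8 to 43.9 in HdR. Below the floor, Cd74, of antigen presentation, was at 0.0156 ± 0.0312 in WT and 0.14 ± 0.117 in HdR (SD, n = 4) without overlap, from 0.993 and 6.53 read pairs. The T cell sum was at most 0.126, over the 3 of 6 markers that had a row. Of 6 melanocyte markers 5 fell, where 23.8% of all tested genes were lower, and their list's sum was 49.8 to 57 in WT and 25.5 to 27.9 in HdR. Among those that fell, Tyr (1.85 ± 0.219 in WT, 0.635 ± 0.053 in HdR) and Mlana (1.48 ± 0.322 and 0.8 ± 0.315) reached the floor through their WT values. The fibroblast sum was 0.118 to 0.73 in WT and 0.121 to 3.86 in HdR, and the endothelial sum 0.482 to 0.784 and 1.22 to 1.85, without overlap. The endothelial marker Kdr, below the floor, was also without overlap, at 0.023 ± 0.0286 in WT and 0.383 ± 0.181 in HdR, from 1.52 and 18.3 read pairs. The part of these cells in the values of the 36 genes was not tested. In bulk RNA, fewer cells of a type and less RNA per cell cannot be told apart.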

How the data were processed

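RNA-seq libraries (RNeasy total RNA, NEBNext Ultra II RNA kit, per the labels' protocols) from 4 WT and 4 HdR keratinocyte cultures were compared. The submitters' processing notes give GRCm38 as the build. The aligner, counter, annotation and strand setting are not given in the sources used here. The authors deposited 1 table of signal, the coverage summed per gene, without depth scaling. This unit was inferred from the values and is not stated in the labels. A step of 302 was taken, as if a read pair added 2 reads of 151 bases. Among low values with signal, 16.9% were whole multiples of this step, so most were not. Read pairs here are values divided by 302, and are approximate equivalents rather than counts. Each library was scaled with trimmed-mean (TMM) factors, trimming 30% of log ratios and 5% of levels. The log2 of each value plus a pseudocount of 1 was fitted with limma 3.58.1 in R 4.3.3 (mean trend, robust, statmod 1.5.0), with genotype as the factor, over genes with a mean of at least 1 per Mb. Tests were two-sided. Calculations were tested on simulated data.

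Alternatives were other scalings, floors and pseudocounts, limma-voom, a replicate block, treat, thinning and each library left out, 19 in all. Gene coordinates and exonic lengths came from GENCODE vM21, and figures from Python 3.11.15 with matplotlib 3.10.9. Values are printed per library for called members. From each further list up to 4 called genes with the smallest p were to be named. Further genes were named after their values were seen, and some genes of the further lists are not reported here. The members and lists were chosen with earlier results of these data known.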

Additional observations from a re-analysis of the deposited data

Results flagged for a closer look

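In 3 of 32 groups of 4 libraries tested, 1 library stood apart from the other 3 by more than Dixon's critical value of 0.829. Chance gives about 1 such group in 20. Dhx58 was at 1.63 per Mb in WT 1 and at 0.792 to 0.899 in the other WT libraries (gap over range 0.873). Ifi35 was at 21.5 in HdR 4, the shallowest library, and at 17.6 to 18 in the other HdR libraries (0.903). Parp14 was at 7.69 in HdR 2 and at 8.79 to 8.92 in the others (0.893).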

How the results depend on the processing

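Ddx58, Irf1 and Ifnar2 were called in the same direction in all 18 alternatives other than the treat test. The other 5 called members lost the call in at least 1 of them, and none of the 7 uncalled members gained one. Against a fold of 1.2, treat called 0 members higher and 0 lower, where 7.47% of all genes were called. After thinning every library to the smallest, 2 members were higher (Ddx58 and Irf1) and 2 lower (Ifnar2 and Oas3). In the thinned fit 37.7% of all genes were called. With each library left out, the number higher ran from 2 (without HdR 3) to 5 (without WT 1 or WT 2, where Oas1a reached the floor through its HdR values and 4 others were called) and the number lower from 2 (without WT 1) to 4. With no floor, 35 members were tested, 6 were higher and 5 lower, where 28.3% of all genes in that fit were called. With the stricter filter 11 members were tested, 3 were higher and 3 lower, where 2293 of 10036 genes were higher and 2558 lower. The replicate numbers are not stated to pair samples. The deviations of same-numbered libraries correlated at 0.028, -0.068, -0.222 and 0.02, and not every library correlated best with its own number. With the replicate number as a block, 4 members were higher and 4 lower, and all 8 called genes were shared with the unblocked fit. Over all genes, 57.7% of calls were higher with upper-quartile scaling, 54% with scaling by library total alone and 47.1% with TMM. Of the 7 uncalled members, 3 changed sign. Ifnar1 was at 0.031 with upper-quartile scaling, at 0.018 with library totals, and from -0.04 to 0.032 with each library left out. Ifi35 was at -0.005 with limma-voom and from -0.033 to 0.06 with each library left out. Ifih1 was at 0.041 after thinning. The cause was not tested. Depth limits the 21 members below the floor, where 1 read pair can move a value.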
